A study of Mus musculus with 18 samples.

Results

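The 5 genes described here handle zinc in mouse cells, and their transcripts were followed in eosinophils that had been given apoptotic cells (ACs) together with Type 1 or Type 2 stimuli. They are Mt1 and Mt2, which encode metallothioneins, Slc30a1, Slc39a14 and Mtf1. The members were chosen by symbol, through the Ensembl gene identifier of each entry, and they are 5 of the 54446 genes in the deposited table. All 5 passed the filter on low values, a mean of at least 10, in each fit reported.

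Eosinophils came from the peritoneal cavity of C57BL/6 mice carrying an Il5 transgene (Il5Tg), which raises eosinophil numbers, and were cultured with thymocytes killed by dexamethasone, a glucocorticoid. Every one of the 6 groups received these ACs, so no library without ACs is analysed here. In the Type 1 experiment, which gave 12 libraries, the groups were ACs, E. coli + ACs, IFN-γ + ACs and IFN-γ + E. coli + ACs, and in the IL-4 experiment, which gave 6, they were ACs and IL-4 + ACs. Each group has 3 libraries, which the paper calls biological replicates. The labels do not say that they came from separate mice, which the paper states only beside a comparison of ACs with unstimulated cells, so p-values measure the spread between these libraries, which may be technical. The eosinophils were purified again with beads against Siglec-F before RNA was taken, and libraries were made by CEL-Seq2, which reads transcripts near their 3′ ends. Each value is a normalized count, the reads counted on a gene divided by a size factor of the library. Mean ± SD of 3 libraries is given unless stated.

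Metallothioneins are small cysteine-rich proteins that bind zinc and copper and buffer the free metal of the cell. When free zinc rises, MTF-1, the zinc-sensing transcription factor encoded by Mtf1, binds metal response elements and induces the metallothionein genes and Slc30a1, whose product ZnT1 exports zinc across the plasma membrane. Slc39a14 encodes ZIP14, an importer of zinc, iron and manganese that is known as a target of inflammatory cytokines. Metallothionein genes are also known to respond to glucocorticoids and to oxidative stress. Activated phagocytes are known to move zinc and copper between the cytosol, the outside and vesicles that hold microbes.

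Promoter sequences were available from RefSeq (GRCm38.p6) for 4 of the 5 members, Slc39a14 having no entry, and each runs from 250 bases before to 50 bases after a RefSeq start site. They are shown because Mt1, Mt2 and Slc30a1 moved together with IFN-γ, and capitals mark each match to the core of the metal response element, spelled TGCACNC or TGCGCNC, on either strand. The Mt1 window lies at chr8:94178839-94179138, that of Mt2 at chr8:94172368-94172667, that of Slc30a1 at chr1:191906531-191906830 and that of Mtf1 at chr4:124802299-124802598, all on the + strand.
Mt1: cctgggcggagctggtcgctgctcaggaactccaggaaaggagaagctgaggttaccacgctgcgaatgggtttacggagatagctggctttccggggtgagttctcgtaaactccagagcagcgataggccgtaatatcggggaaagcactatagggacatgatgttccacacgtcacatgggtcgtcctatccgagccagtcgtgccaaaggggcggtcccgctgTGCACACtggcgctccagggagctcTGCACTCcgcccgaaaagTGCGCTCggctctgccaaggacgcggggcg
Mt2: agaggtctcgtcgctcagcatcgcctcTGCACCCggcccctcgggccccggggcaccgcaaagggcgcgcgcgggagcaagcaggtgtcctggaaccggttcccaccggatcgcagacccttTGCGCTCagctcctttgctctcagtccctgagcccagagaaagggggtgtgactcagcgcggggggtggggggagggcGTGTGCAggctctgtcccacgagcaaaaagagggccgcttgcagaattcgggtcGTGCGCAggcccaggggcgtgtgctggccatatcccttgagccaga
Slc30a1: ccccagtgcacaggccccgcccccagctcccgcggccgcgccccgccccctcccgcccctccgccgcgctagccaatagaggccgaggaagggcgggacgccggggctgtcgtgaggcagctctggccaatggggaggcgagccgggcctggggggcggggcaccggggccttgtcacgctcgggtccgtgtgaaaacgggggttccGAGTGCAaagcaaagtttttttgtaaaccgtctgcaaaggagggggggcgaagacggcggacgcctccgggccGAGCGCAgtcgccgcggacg
Mtf1: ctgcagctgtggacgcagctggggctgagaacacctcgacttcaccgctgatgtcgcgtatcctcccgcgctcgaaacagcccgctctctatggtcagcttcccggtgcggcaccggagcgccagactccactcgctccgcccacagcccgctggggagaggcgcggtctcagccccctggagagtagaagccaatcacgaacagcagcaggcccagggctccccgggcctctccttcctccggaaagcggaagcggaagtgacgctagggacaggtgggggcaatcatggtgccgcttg
The core occurred 3 times for Mt1, 4 times for Mt2 and 2 times for Slc30a1, and no match was found in the window of Mtf1. Of the 32851 windows of the same length, 25.7% held at least 1 match, 7.11% at least 2, 1.97% at least 3 and 0.517% at least 4. The GAS element, to which STAT factors bind, was searched as TTCNNNGAA and was found in none of the 4 windows, against 8.3% of all windows. The core of the antioxidant response element, searched as TGACNNNGC on both strands, was found 1 time each for Mt2 and Slc30a1, against 12.4% of all windows. These matches are letters in a window, and binding was not measured. The RefSeq start sites can differ from the annotated gene starts given below. The Mtf1 window lies inside the gene, which starts at 124802104, and the Mt2 window ends at 94172667, where the gene starts at 94172664. Elements outside a window were not counted, so a window without a match does not mean a promoter without one.

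On GRCm38 and the GENCODE annotation, Mt1 (ENSMUSG00000031765.8) spans chromosome 8 from 94179082 to 94180327 and Mt2 (ENSMUSG00000031762.7) from 94172664 to 94173568, both on the + strand with 5513 bases between them. The longest run of bases that their transcripts share is 20. Slc30a1 (ENSMUSG00000037434.7) lies on chromosome 1 from 191906767 to 191913247 on the + strand. Slc39a14 (ENSMUSG00000022094.15) lies on chromosome 14 from 70303469 to 70351425 on the - strand. Mtf1 (ENSMUSG00000028890.13) lies on chromosome 4 from 124802104 to 124849800 on the + strand. It overlaps 1110065P20Rik, a coding gene of the opposite strand with a mean of 146.5 over the 18 libraries. The strand setting of the counting is not given in the sources used here, so reads of Mtf1 and of that neighbour cannot be told apart with certainty. The antisense genes over Mt2 and Slc30a1 had means over the 18 libraries of only 4.02 and 0.465.

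Libraries held 779421 to 7782072 reads on genes. In the IL-4 experiment replicate 3 of each group was shallow, at 849705 reads with IL-4 + ACs and 779421 with ACs, so that 1 read there stands for a normalized count of 5.1399 and 5.3614. The eosinophil markers Siglecf and Ccr3 had group means of 1630 to 3237 and of 2974 to 4498, while Epx, encoding eosinophil peroxidase, had group means of 0.46 to 14.1. The thymocyte list of 11 genes summed to at most 163.59 in any library, the mast cell and B cell lists to at most 67.64 and 89.94, and the neutrophil list to between 765.91 and 4685.4, with 1 or 2 of its 6 genes at a group mean of at least 10.

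The zinc genes split by stimulus. IFN-γ + ACs raised 3 of the 5 members against ACs (Mt1, Mt2 and Slc30a1), where 11.4% of the 10166 genes tested were called higher and 21.4% in either direction. E. coli + ACs raised 1 of 5 (Slc39a14), where 5.05% of genes were called higher and 10.3% in either direction. The combination, IFN-γ + E. coli + ACs, raised 2 of 5 (Slc30a1 and Mtf1), where 14.7% of genes were called higher and 31.9% in either direction. With IL-4 + ACs, limma called 0 of 5, with 1 at an unadjusted p under 0.05 (Mt2, the 1 member called by edgeR and by DESeq2), against 1.09% of the 10669 genes tested that were called in either direction. Calls were made by limma and needed a Benjamini-Hochberg adjusted p under 0.05 beside a change of 1.5-fold or more. The other members did not pass the test. Each member that rose lay above its ACs libraries without overlap, as did 22.6% of all genes tested with IFN-γ, 19.9% with E. coli and 23.9% with both. The median log2 fold change of the 5 members was 0.93 with IFN-γ, 0.19 with E. coli, 0.38 with both and 0.096 with IL-4, and the median of all genes tested lay between -0.047 and 0 in the same comparisons. The 3 stimuli of the Type 1 experiment share their ACs libraries.

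**Figure D1:**
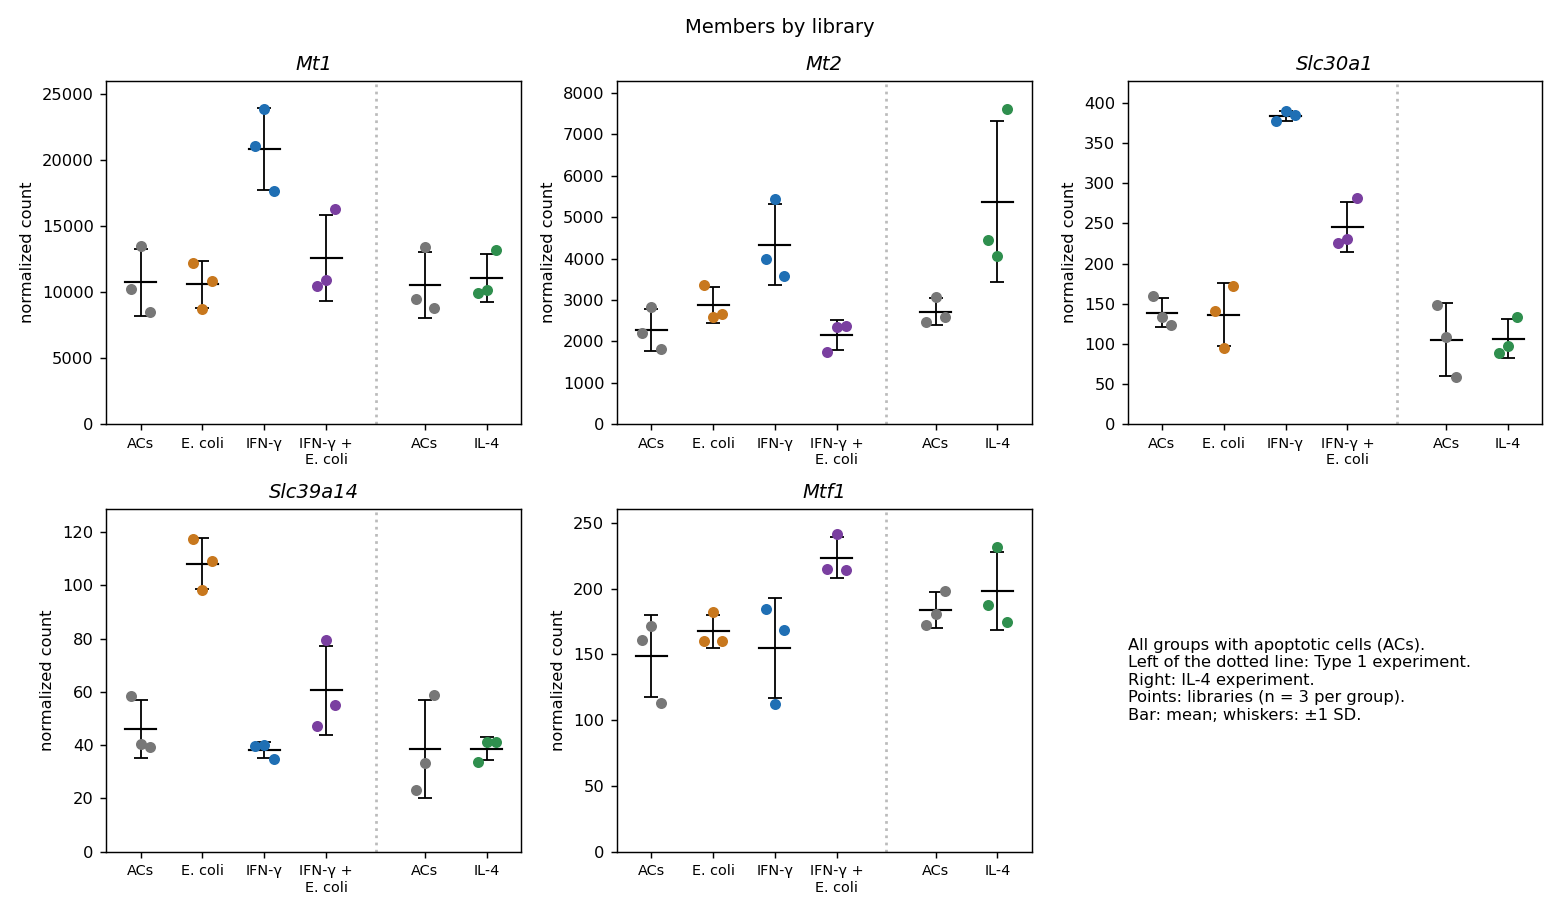
Normalized count (vertical axis, from 0) of each member in each library, by group, with a panel for each gene; points are libraries, bars are means and whiskers ±1 SD of 3 libraries. The IFN-γ points of Mt1, Mt2 and Slc30a1 lie above all ACs points of the Type 1 experiment, the E. coli points of Slc39a14 lie above those of every other group, and the IL-4 points of Mt2 lie above those of their own ACs.

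Mt1, the first of the metallothioneins, took between 0.21% and 0.509% of the counted reads of each library. Its normalized counts were 10232, 13503 and 8532 with ACs in the Type 1 experiment, 12245, 8703 and 10852 with E. coli + ACs, and 21072, 23876 and 17660 with IFN-γ + ACs. Under both stimuli, IFN-γ + E. coli + ACs, they were 10499, 10938 and 16316. The 3 IFN-γ libraries lay above all 9 others of that experiment, which overlapped each other. The share of all genes with a group above the other 9 libraries was not counted, here or for the members below.

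The mean of Mt1 was 20869 ± 3113 with IFN-γ and 10756 ± 2527 with ACs, a log2 fold change of 0.97 (SE 0.181, limma adjusted p = 0.00045). With E. coli the log2 fold change was -0.0092 (95% interval -0.39 to 0.37, adjusted p = 0.99), and with both stimuli it was 0.22 (-0.16 to 0.60, adjusted p = 0.35). Adding E. coli to IFN-γ gave a log2 fold change of -0.75 against IFN-γ alone (SE 0.181, adjusted p = 0.0062), and the ranges did not overlap, as in 15.3% of genes that were lower. In the order of the means, E. coli, ACs and IFN-γ + E. coli overlapped their neighbours and only IFN-γ stood apart.

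In the IL-4 experiment Mt1 had normalized counts of 9514, 13438 and 8787 with ACs and of 9913, 10165 and 13210 with IL-4 + ACs. The groups overlapped, and the log2 fold change was 0.082 (95% interval -0.32 to 0.48, adjusted p = 0.91). The IL-4 effect on Mt1 was below the IFN-γ effect by 0.89 on the log2 scale in a test of that difference (limma difference -0.89, SE 0.282, adjusted p = 0.037), a call that was lost in 7 of the 18 fits that each left out a library, with adjusted p up to 0.12 and values from -1.07 to -0.70. Those 7 libraries were replicates 1 and 3 of ACs in the Type 1 experiment, 1 and 2 of IFN-γ + ACs, 1 and 2 of IL-4 + ACs, and 2 of its ACs.

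Mt2, the neighbour of Mt1 on the chromosome, followed it with IFN-γ. Its normalized counts were 2193, 2825 and 1811 with ACs in the Type 1 experiment, 3369, 2592 and 2648 with E. coli + ACs, and 3991, 5438 and 3579 with IFN-γ + ACs. Under both stimuli they were 1742, 2348 and 2372. The IFN-γ libraries again lay above the other 9, and those with both stimuli lay below all 3 with E. coli alone, as did 19.4% of genes, a difference that did not pass the test (log2 fold change -0.42, adjusted p = 0.086).

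The mean of Mt2 was 4336 ± 976 with IFN-γ and 2276 ± 512 with ACs, a log2 fold change of 0.93 (SE 0.174, limma adjusted p = 0.00047). With E. coli, where the mean was 2869 ± 433, the log2 fold change of 0.35 did not pass the test (95% interval -0.017 to 0.71, adjusted p = 0.22). When E. coli was added to IFN-γ, the mean of Mt2 was 2154 ± 357, a log2 fold change of -1.0 against IFN-γ alone (SE 0.174, adjusted p = 0.00045) and of -0.07 against ACs (95% interval -0.43 to 0.29, adjusted p = 0.78).

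The effect of IFN-γ and E. coli together on Mt2 therefore fell short of the sum of the separate effects, and the interaction term was -1.35 on the log2 scale (SE 0.246, limma adjusted p = 0.0021). Of all genes tested, 4.28% had an interaction term called lower, and Mt2 was the 1 member of 5 that did. The interaction terms of the other members were -0.74 for Mt1 (adjusted p = 0.084), -0.59 for Slc30a1 (0.19), -0.62 for Slc39a14 (0.30) and 0.36 for Mtf1 (0.48).

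With IL-4, Mt2 had its highest mean of the 6 groups, a rank across separate experiments that leans on the shallow replicate 3. Its normalized counts were 4449, 4071 and 7602 with IL-4 + ACs and 2470, 3080 and 2579 with ACs. The values of 4449 and 4071 lay within the range of IFN-γ + ACs, 3579 to 5438. All 3 IL-4 libraries lay above all 3 ACs libraries, a pattern that 8.45% of the genes tested in this comparison showed, and the highest was the shallow replicate 3, where the value rests on 1479 reads. The mean was 5374 ± 1939 against 2710 ± 325, a log2 fold change of 0.94 (SE 0.216, unadjusted p = 0.0015) that did not pass after adjustment by limma (adjusted p = 0.10).

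The call for Mt2 with IL-4 depended on the fit. It passed with edgeR (adjusted p = 0.017) and DESeq2 (0.00025) on the recovered reads, with array weights (0.00016), without a filter on low values (0.0022), in a fit of all 18 libraries (0.015), and with both shallow libraries left out (0.0067), where the log2 fold change was 0.63. Over all alternatives, single libraries left out included, the log2 fold change stayed between 0.63 and 1.11 and the adjusted p between 0.00016 and 0.34. The IL-4 effect on Mt2 exceeded the effect of IFN-γ + E. coli by 1.01 on the log2 scale (SE 0.296, limma adjusted p = 0.019, with 9.67% of 10414 genes called higher). That call was lost without a filter on low values (1.01, adjusted p = 0.059), without both shallow libraries (0.70, 0.069) and without replicate 3 of IL-4 + ACs (0.73, 0.051), replicate 2 of ACs in the Type 1 experiment (0.84, 0.063) or replicate 1 of IFN-γ + E. coli + ACs (0.86, 0.060). Against the IFN-γ effect, the IL-4 effect on Mt2 differed by 0.0067 (95% interval -0.61 to 0.62, adjusted p = 0.99).

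The ratio of Mt2 to Mt1 within a library does not depend on the size factor. It was chosen after the values were seen, and it is compared between groups and not read as a ratio of molecules. The ratios were 0.449, 0.4 and 0.575 with IL-4 + ACs and 0.26, 0.229 and 0.293 with its ACs, so that the groups did not overlap and the mean ratio was 1.81-fold higher with IL-4. In the Type 1 experiment they were 0.214, 0.209 and 0.212 with ACs, 0.275, 0.298 and 0.244 with E. coli, 0.189, 0.228 and 0.203 with IFN-γ, and 0.166, 0.215 and 0.145 with both. The E. coli libraries lay above the ACs libraries, and those with IFN-γ lay on both sides of them. In a two-sided exact permutation test of 3 against 3 libraries the smallest p possible is 0.10, which IL-4, E. coli and IFN-γ in the presence of E. coli reached (adjusted p = 0.20 over 6 comparisons), and for IFN-γ p was 0.70 (adjusted p = 0.70).

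**Figure D2:**
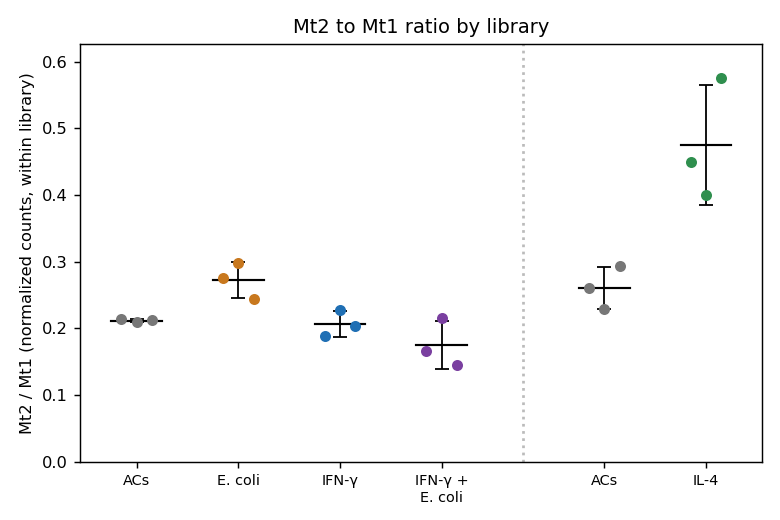
Ratio of the Mt2 to the Mt1 normalized count in each library (vertical axis, from 0, no unit), by group; points are libraries, bars are means and whiskers ±1 SD of 3 libraries. The IL-4 libraries lie between 0.4 and 0.575, and those of their own ACs between 0.229 and 0.293. The other 12 libraries are from the separate Type 1 experiment.

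Slc30a1, which encodes the zinc exporter ZnT1, had the largest log2 fold change of the 5 members with IFN-γ. Its normalized counts were 159, 133 and 124 with ACs in the Type 1 experiment, 141, 94.8 and 172 with E. coli + ACs, and 377, 390 and 386 with IFN-γ + ACs. Under both stimuli they were 225, 231 and 281. The libraries with both stimuli lay between those with IFN-γ alone and the rest, with no overlap on either side.

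The mean of Slc30a1 was 384 ± 6.38 with IFN-γ and 139 ± 18.4 with ACs, a log2 fold change of 1.47 (SE 0.188, limma adjusted p = 7.7e-06). With both stimuli the mean was 246 ± 31.0, a log2 fold change of 0.82 against ACs (SE 0.188, adjusted p = 0.0019) and of 0.88 against E. coli + ACs (SE 0.188, adjusted p = 0.0021). Against IFN-γ alone it was -0.65 (SE 0.188, adjusted p = 0.020). That last call was lost in the fit of all 18 libraries (adjusted p = 0.099), without replicate 2 of IFN-γ + ACs (0.061) and without replicate 1 of IFN-γ + E. coli + ACs (0.071). E. coli without IFN-γ gave -0.062 (95% interval -0.46 to 0.33, adjusted p = 0.89).

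With IL-4 + ACs, Slc30a1 had normalized counts of 88.6, 97.5 and 134, and with its ACs 149, 108 and 59.0. The groups overlapped (log2 fold change 0.092, 95% interval -0.64 to 0.83, adjusted p = 0.95), and the values of the shallow libraries rest on 26 and 11 reads. The IL-4 effect lay below the IFN-γ effect (limma difference -1.38 on the log2 scale, SE 0.37, adjusted p = 0.014), as it did for Mt1, and 8.09% of genes were called lower in this test. Against the E. coli effect, limma called the IL-4 effect different in 0 of 5 members, with 1 at an unadjusted p under 0.05 (Slc39a14, adjusted p = 0.14) and 0 by edgeR or DESeq2, and 4.43% of genes were called in either direction.

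Slc39a14, encoding the importer ZIP14, was the member that E. coli raised. Its normalized counts were 58.6, 40.4 and 39.2 with ACs in the Type 1 experiment, 117, 98.1 and 109 with E. coli + ACs, and 39.6, 40.1 and 34.9 with IFN-γ + ACs. Under both stimuli they were 47.0, 79.4 and 55.2. The E. coli libraries lay above the other 9, and the values rest on 17 to 140 reads per library.

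The mean of Slc39a14 was 108 ± 9.59 with E. coli and 46.0 ± 10.9 with ACs, a log2 fold change of 1.24 (SE 0.243, limma adjusted p = 0.0017). IFN-γ gave -0.24 (95% interval -0.75 to 0.27, adjusted p = 0.51). With E. coli present, IFN-γ lowered Slc39a14 by a log2 fold change of -0.86 (SE 0.243, adjusted p = 0.015), and 9.57% of genes were called lower in that comparison. The call was lost without replicate 1 of E. coli + ACs (adjusted p = 0.063) and without replicate 1 of IFN-γ + E. coli + ACs (0.066). Slc30a1 was the member called higher in the same comparison, in which 9.79% of genes were called higher.

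In the IL-4 experiment Slc39a14 had normalized counts of 33.6, 41.1 and 41.1 with IL-4 + ACs and of 23.3, 33.5 and 59.0 with ACs. The groups overlapped, with values that rest on 8 and 11 reads in the shallow libraries (log2 fold change 0.096, 95% interval -0.74 to 0.94, adjusted p = 0.95).

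Mtf1, encoding the zinc sensor, rose with both stimuli together and did not pass the test with either alone. Its normalized counts were 161, 172 and 113 with ACs in the Type 1 experiment, 160, 182 and 160 with E. coli + ACs, and 185, 112 and 168 with IFN-γ + ACs. With IFN-γ + E. coli + ACs they were 215, 242 and 214, above the other 9, which overlapped each other. The mean of 224 ± 15.8 with both stimuli against 149 ± 31.1 gave a log2 fold change of 0.61 (SE 0.195, limma adjusted p = 0.019).

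That call for Mtf1 was close to the thresholds, since its fold was 1.52. It was lost after scaling to a common upper quartile (0.47, adjusted p = 0.060), without replicate 3 of ACs (0.42, 0.13) and without replicate 2 of IFN-γ + E. coli + ACs (0.55, 0.054). IFN-γ alone gave 0.051 (95% interval -0.36 to 0.46, adjusted p = 0.88) and E. coli alone 0.19 (-0.22 to 0.60, adjusted p = 0.60). The transcript of the sensor thus did not pass the test in the IFN-γ comparison, in which Mt1, Mt2 and Slc30a1 rose. With IL-4 + ACs the normalized counts of Mtf1 were 188, 231 and 175 and with ACs 172, 181 and 198, which overlapped (0.099, 95% interval -0.30 to 0.50, adjusted p = 0.88).

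**Figure D3:**
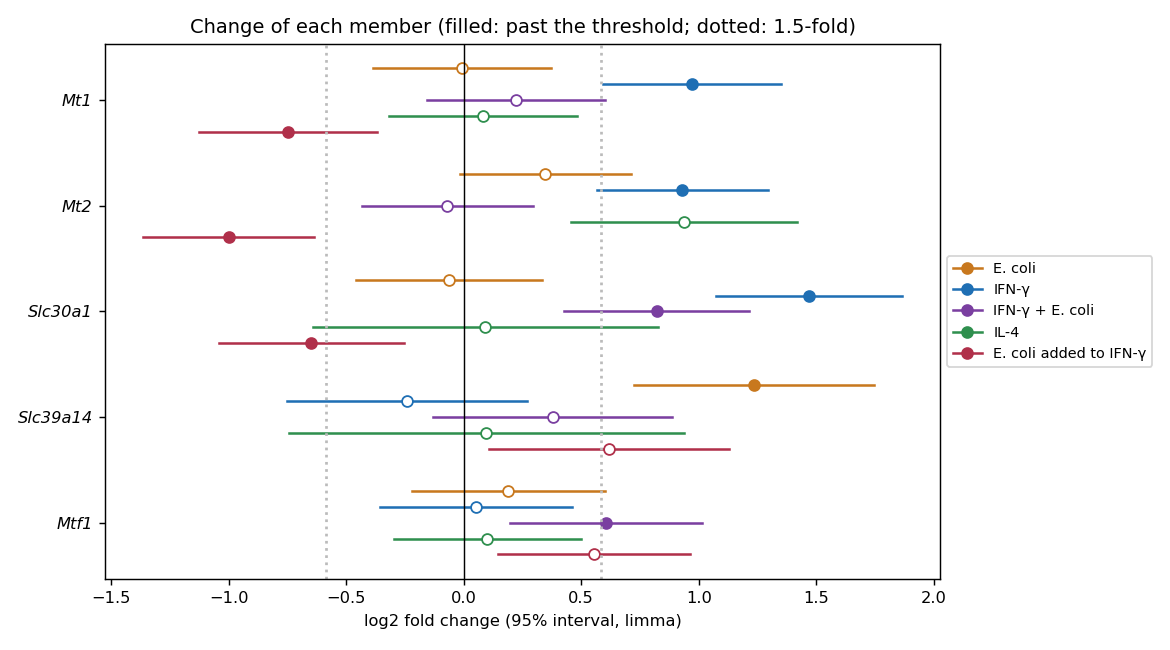
Log2 fold change of each member (horizontal axis) with its 95% interval from limma, for each stimulus against the ACs of its own experiment and for E. coli added to IFN-γ against IFN-γ alone; filled points passed the threshold and dotted lines mark 1.5-fold. The blue IFN-γ points of Mt1, Mt2 and Slc30a1 lie at 0.97, 0.93 and 1.47, and the red points of the same genes, E. coli added to IFN-γ, lie at -0.75, -1.0 and -0.65.

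E. coli added to IFN-γ thus lowered the same 3 members that IFN-γ had raised, against 8.61% of genes called lower in that comparison. Both comparisons contain the IFN-γ + ACs libraries, so a high value there would enter them with opposite signs. Slc39a14 (0.62, limma adjusted p = 0.082) and Mtf1 (0.55, 0.053) did not pass the test, although their ranges lay above those with IFN-γ alone without overlap, as did those of 14.2% of genes. Mtf1 passed there without replicate 1 or 3 of IFN-γ + ACs (adjusted p = 0.032 and 0.049).

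Markers of macrophages, another cell of the peritoneal cavity, moved with the groups. Their list of 10 genes summed to normalized counts of 14027 to 17571 with ACs in the Type 1 experiment, 7214.8 to 8569.1 with E. coli, 20248 to 28756 with IFN-γ and 8700.4 to 8980.8 with both. With IFN-γ 3 of its 10 genes were called higher and 3 lower, against 11.4% and 9.96% of all genes tested. Among them were Marco, with a mean of 3155 against 707, and Cd163, with a mean of 5.69 against 52.6. The eosinophil list of 9 genes summed to 10600 to 12148 with IFN-γ and 17161 to 18552 with ACs, with 4 of the 8 genes tested called lower. The summed macrophage list and the levels of Mt1 and Mt2 were thus both highest with IFN-γ among the groups of the Type 1 experiment. The part of this list in the rise of these genes was not tested. With both stimuli the eosinophil list summed to 15765 to 18456. Against ACs, 2 macrophage markers were called higher there and 6 lower, beside 14.7% and 17.2% of all genes tested. From IFN-γ alone to both stimuli the macrophage sum thus fell and the eosinophil sum rose, while Mt1, Mt2 and Slc30a1 fell. The part of either list in that fall was not tested. With E. coli, 7 of the 10 macrophage markers were called lower, against 5.25% of all genes tested. Mt1, Mt2 and Slc30a1 did not pass the test there. In bulk RNA, fewer cells of a type and less RNA per cell cannot be told apart.

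With IL-4 the macrophage list summed to 16675 to 26615, against 20102 to 29145 with ACs, with 1 gene called higher and 2 lower. Of all genes tested, 0.74% were called higher and 0.347% lower. The eosinophil list summed to 24656 to 27491 against 21933 to 24680. The shallow replicate 3, which had the highest Mt2, also had the highest macrophage sum of the IL-4 libraries. The part of these markers in the Mt2 values was not tested.

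**Figure D4:**
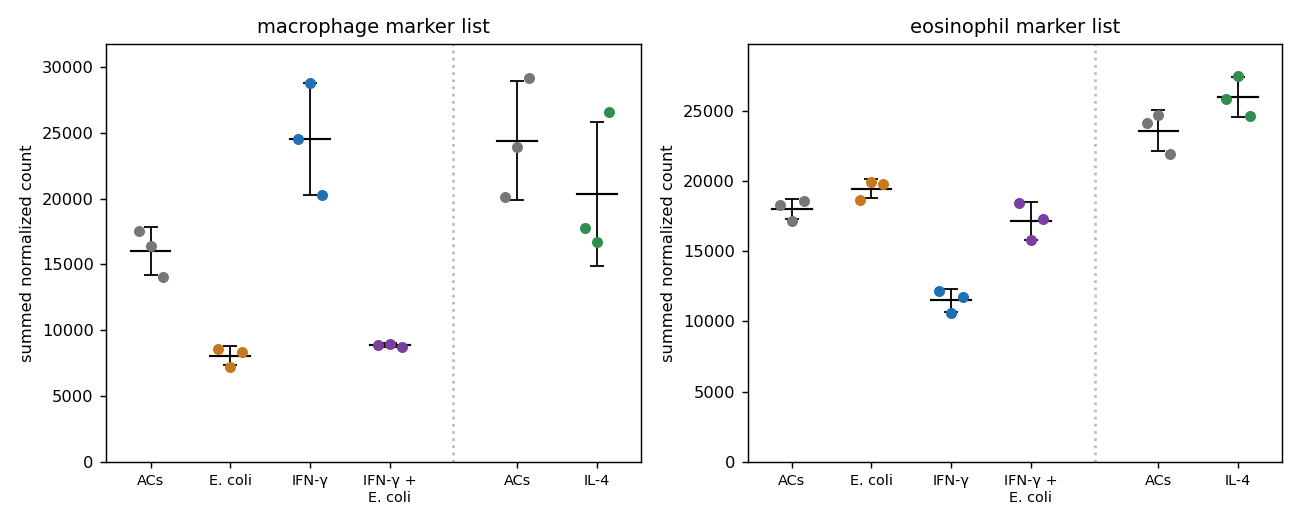
Summed normalized count (vertical axis, from 0) of the macrophage and eosinophil marker lists in each library, by group; points are libraries, bars are means and whiskers ±1 SD of 3 libraries. In the Type 1 experiment the macrophage sums are highest with IFN-γ (20248 to 28756) and the eosinophil sums lowest (10600 to 12148).

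Other genes that handle metals are given by list. Beside their counts, the shares of all genes tested that were called higher were 11.4% with IFN-γ, 5.05% with E. coli and 14.7% with both. The shares called lower were 9.96%, 5.25% and 17.2% in the same order. Among metallothioneins, Mt3 had normalized counts of 34.3, 37.8 and 24.6 with IFN-γ + ACs, resting on 26, 33 and 12 reads, and of 0.81, 4.69 and 0.82 with ACs. Mt3, a low gene that was picked out after its values were seen, rose with IFN-γ by a log2 fold change of 3.62 (SE 0.66, limma adjusted p = 0.00037) and with both stimuli by 1.94 (SE 0.66, adjusted p = 0.026). Mt4 had group means of at most 1.93 and was not tested. Of the 9 other zinc exporters of the ZnT family, 4 were tested in the Type 1 experiment, and 1 rose with both stimuli, Slc30a9, by 1.00 (SE 0.178, adjusted p = 0.00019). With IFN-γ limma called 0 of 4, with 0 at an unadjusted p under 0.05 and 0 by edgeR or DESeq2, and with E. coli it called 0, with 1 unadjusted (Slc30a9) and 0 by the other tools.

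Of the 13 other importers of the ZIP family, 8 were tested there. Slc39a4, which encodes the zinc importer ZIP4, rose with E. coli from 48.0 ± 11.2 to 111 ± 25.6 (log2 fold change 1.2, SE 0.254, limma adjusted p = 0.0032) and to 171 ± 13.5 with both stimuli (1.83, adjusted p = 1.2e-05). Slc39a4 had a mean of 36.6 ± 10.0 with IFN-γ alone (-0.39, adjusted p = 0.28). Slc39a11 fell with E. coli (-1.52, SE 0.432, adjusted p = 0.024) and with both (-1.38, adjusted p = 0.017). With IFN-γ limma called 0 of 8 importers, with 1 at an unadjusted p under 0.05 (Slc39a11) and 0 by edgeR or DESeq2. Slc39a7, Slc39a5, Slc30a3 and Slc30a10 are listed at 0 in every library.

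With IL-4 limma called 0 of 6 tested exporters and 0 of 9 tested importers, while 1 of each had an unadjusted p under 0.05 and was called by edgeR and by DESeq2. They were named after their values were seen. Slc30a4, encoding the exporter ZnT4, had a mean of 32.3 ± 4.15 with IL-4 + ACs and 7.40 ± 2.89 with ACs (log2 fold change 2.03, SE 0.498, limma adjusted p = 0.14). Slc39a8, encoding the importer ZIP8, had 46.0 ± 17.7 and 7.18 ± 7.01 (3.14, SE 0.93, adjusted p = 0.27). Both lie near the value of a few reads in the shallow libraries.

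Of 5 other genes known as MTF-1 targets, 3 rose with each of the Type 1 stimuli. They are Gclc and Txnrd1, of glutathione synthesis and thioredoxin reduction, and Hmox1, the inducible heme oxygenase, all of which are also known targets of the oxidative stress factor NRF2. Hmox1 rose from 1822 ± 308 to 10938 ± 1558 with IFN-γ (log2 fold change 2.59, SE 0.143, limma adjusted p = 8.9e-11), to 7115 ± 448 with both (1.98) and to 3331 ± 626 with E. coli (0.87, adjusted p = 0.00032). Like Slc30a1, it had its highest mean with IFN-γ and the next with both stimuli. Gclc and Txnrd1 were instead highest with both stimuli, at log2 fold changes of 2.11 and 2.39. The median of the list was 1.48 with IFN-γ, 0.87 with E. coli and 1.98 with both, and -0.38 with IL-4, where limma called 0 of 5, with 1 at an unadjusted p under 0.05 that edgeR and DESeq2 also called (Hmox1, -0.82, adjusted p = 0.10).

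Among 10 copper genes, 9 were tested. The copper importer Slc31a1, which encodes CTR1, rose with IFN-γ from 284 ± 75.0 to 969 ± 99.5 (log2 fold change 1.79, SE 0.174, limma adjusted p = 2.2e-07) and with both stimuli to 521 ± 80.9 (0.90, adjusted p = 0.00044). Slc31a1 thus also had its highest mean with IFN-γ and a lower one when E. coli was added. Atp7a, a copper pump, rose with IFN-γ (1.70, adjusted p = 0.0042) and with both (1.53, 0.0063). Its means were 19.3 ± 7.54 with ACs, 62.3 ± 15.4 with IFN-γ and a widely scattered 65.0 ± 50.6 with both. Cox17, which carries copper to mitochondria, rose with all 3 stimuli (0.68 to 0.92). Cp, encoding ceruloplasmin, rose with E. coli (1.1, adjusted p = 0.0013) and had values of -0.19 with IFN-γ and 0.11 with both (adjusted p = 0.55 and 0.71). Atox1, a copper chaperone (-0.63), and Commd1 (-0.87) fell with both. The list's median was 0.23 with IFN-γ, 0.19 with E. coli, 0.11 with both and -0.073 with IL-4, where limma called 0 of 9, with 0 at an unadjusted p under 0.05 and 0 by edgeR or DESeq2.

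The zinc-binding S100 proteins S100a8 and S100a9, which together form calprotectin, rose with all 3 Type 1 stimuli. S100a8 was highest with E. coli, at 330 ± 67.5 against 47.3 ± 8.62 with ACs (log2 fold change 2.77, SE 0.215, limma adjusted p = 4.7e-08), and both genes of this list were called, with a median of 3.41. S100a9 was low, at 42.4 ± 8.24 with E. coli and 2.17 ± 2.05 with ACs. That median thus leans on an ACs level of a few reads. With IL-4 limma called 0 of 2, with 1 at an unadjusted p under 0.05 (S100a8, -1.43, adjusted p = 0.28) and 0 by edgeR or DESeq2.

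**Figure D5:**
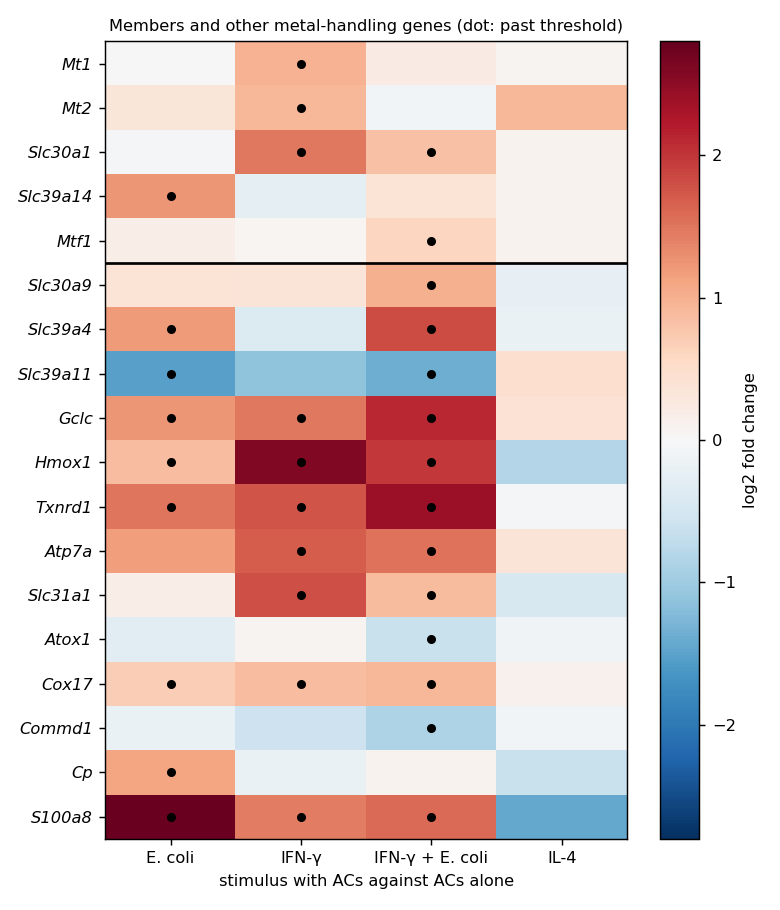
Log2 fold change (colour scale) of the members, above the line, and of other named metal-handling genes, below it, for each stimulus with ACs against ACs alone; dots mark genes past the threshold. IFN-γ raised Mt1, Mt2 and Slc30a1 together with Hmox1 (2.59) and Slc31a1 (1.79), and E. coli raised Slc39a14 (1.24) together with Slc39a4 (1.2). With IL-4 no gene shown passed the threshold by limma, which only 1.09% of all genes tested passed. Mt2 and Hmox1 were called there by edgeR and by DESeq2.

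Lists for IL-6 with STAT3 and for glucocorticoids, both known inducers of metallothioneins, were counted as well. With IL-4, limma called 1 of 10 genes of the former higher and 1 lower, against 0.74% and 0.347% of all genes tested. There were 3 at an unadjusted p under 0.05, and edgeR and DESeq2 called the same 3 (Il6, Lcn2 and Il6st). Il6st had a mean of 195.5 ± 44.5 with IL-4 + ACs and 84.0 ± 43.4 with ACs (log2 fold change 1.30, SE 0.326, limma adjusted p = 0.15). Il6 rose from 40.6 ± 20.7 to 273 ± 107 (log2 fold change 2.76, SE 0.363, limma adjusted p = 0.0057) in the group where Mt2 had its highest mean. Il6 also rose with E. coli (0.98, limma adjusted p = 0.019) and with both stimuli (1.75, adjusted p = 3.8e-05), where Mt2 had values of 0.35 and -0.07 that did not pass the test. The part of Il6 in the Mt2 values was not tested. Lcn2, encoding an iron-sequestering lipocalin, fell from 1791 ± 145 to 213 ± 51.4 (-3.09, adjusted p = 9.6e-05). Stat3 rose with IFN-γ (1.08, adjusted p = 7.2e-07) and with both stimuli (1.72, 8.9e-10), and Bcl3, a partner of NF-κB subunits, rose with all 3 Type 1 stimuli (1.21 to 2.82). Il6ra and Il6st, the receptor chains of IL-6, fell with E. coli (-0.89 and -1.32) and with both (-1.98 and -1.58). In this list 2 of 10 genes rose with IFN-γ, 3 rose and 2 fell with E. coli, and 4 rose and 2 fell with both. Of all genes tested, 11.4% rose and 9.96% fell with IFN-γ, 5.05% and 5.25% with E. coli, and 14.7% and 17.2% with both.

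Of 10 glucocorticoid-responsive genes, 1 rose and 1 fell with IFN-γ, 1 rose and 2 fell with E. coli, and 1 rose and 3 fell with both. With IL-4 limma called 0, with 2 at an unadjusted p under 0.05 (Ddit4 and Sgk1) and 1 by edgeR and DESeq2 (Ddit4). Genes called in either direction made up 1.09% of all tested with IL-4. In the 3 Type 1 comparisons they made up 21.4% with IFN-γ, 10.3% with E. coli and 31.9% with both. The gene that rose in all 3 was Il1r2, a decoy receptor for IL-1 (0.95 to 2.29), while Sgk1 fell with IFN-γ (-0.81, limma adjusted p = 5.5e-05) and with both (-0.88), and Dusp1 (-0.80) and Ddit4 (-0.81) fell with E. coli. The median of the list was 0.047 with IFN-γ and -0.37 with IL-4. What part of the members' values comes from the dexamethasone used on the ACs, which every group received, was not tested.

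Likeness of pattern was measured by Pearson's r over the 18 libraries on log2 values, after subtracting the mean of each experiment's ACs libraries, for 6906 genes with a mean of at least 50. The libraries of a group share their treatment, so r is a description. The genes most like Mt1 were Rps23 (r = 0.917), H2-Eb1 (0.896), Cstb (0.883), Ddit3 (0.868) and H2-Aa (0.857). H2-Eb1 and H2-Aa are genes of major histocompatibility complex class II, and H2-Aa had group means of 308 with ACs, 1386 with IFN-γ and 544 with both stimuli. Slc30a1 stood at rank 23 for Mt1 (0.817), whereas Mt2 stood at rank 387 (0.63).

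For Mt2 the leading genes were Gch1 (0.891), Ssr4 (0.879) and Rps2 (0.87), of which Gch1 makes the cofactor of nitric oxide synthases. For Slc30a1 they were Gyg (0.918), 4930455G09Rik (0.917) and H2-Ab1 (0.913). For Slc39a14 they were Tm2d2 (0.883), Ap4s1 (0.878) and Aprt (0.868), and for Mtf1 they were Srsf1 (0.852), Hnrnpr (0.814) and Nedd9 (0.803). No other member was among the leading genes of any of the 5.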

How the data were processed

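Levels of 5 genes were examined in 18 libraries of 6 groups, taken from the sample labels. The authors deposited 1 table of signal per gene and library, a normalized count scaled by the library's DESeq2 size factor. Per the submitters' processing notes, the tools were FastQC 0.11.5, Trim Galore, cutadapt 1.10, TopHat2 2.1.0, Bowtie2 2.2.6, HTSeq 0.6.1 and DESeq2 1.26.0 on GRCm38, and the paper describes a second pipeline as well. Whether molecular identifiers were collapsed is not given in the sources used here, so reads may not be independent molecules.

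Whole reads were recovered for 100.0% of the values in every library, within 0.0051 normalized units plus 2e-06 of the value. Symbols were matched for 54409 of 54446 genes. Chi-square per degree of freedom between replicates was 4.19 to 14.7, above counting error, and no library was counted as a repeat. Since reads may not be independent molecules, a value above counting error cannot exclude technical repeats.

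limma 3.58.1 (R 4.3.3; lmFit, eBayes with a trend) was run on log2(normalized count + 1), so fold changes of low genes are understated, over genes with a mean of at least 10, separately for the 12 and the 6 libraries, and on all 18 for differences between the effects of the 2 experiments (10414 genes). Calls needed an adjusted p under 0.05 and 1.5-fold, as in the paper. Same-numbered libraries did not deviate together over the experiments (mean r 0.0056 over 18 pairs and 0.041 over 3 pairs; 4 and 0 pairs over 0.1), except in the IFN-γ + ACs and IFN-γ + E. coli + ACs groups, where r was 0.169 to 0.245 in the 3 same-numbered pairs and -0.162 to 0.0197 in the others, so that by this check the numbers pair these 2 groups, whose comparison was also fitted with the numbers as a block. Alternatives were a pseudocount of 5, no filter, a mean of at least 50, a replicate block, an upper-quartile scaling, array weights, the recovered reads in edgeR 4.0.16 or in DESeq2 1.42.0, no fold threshold, all 18 libraries together, each library left out in turn and, added after seeing the data, both shallow libraries left out and the 6 libraries of these 2 groups alone, with and without the block. The fits were tested on simulated data.

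All 5 members were named, with up to 6 genes of each list that were called against ACs and averaged 50 or more in the higher group, and the genes most like each member. The members and lists were chosen with earlier results of these data known. S100a12 was not matched. Python 3.11.15, pandas 2.3.3, scipy 1.17.1 and matplotlib 3.10.9 were used.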

Additional observations from a re-analysis of the deposited data

Results flagged for a closer look

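In 4 cases the effect of a stimulus on a member differed from the effect of another by a direct test of the difference (limma, adjusted over all genes tested). For Mt2 the interaction of IFN-γ and E. coli was -1.348 on the log2 scale (adjusted p = 0.0021), since the rise with IFN-γ was not seen with both stimuli, and it passed in all 10 alternatives and all 12 fits that left out a library. The IL-4 effect minus the IFN-γ effect was -0.8898 for Mt1 (adjusted p = 0.037) and -1.378 for Slc30a1 (adjusted p = 0.014), since both genes rose with IFN-γ and did not pass the test with IL-4. The call of Mt1 was kept in 7 of 10 alternatives and in 11 of 18 fits that left out a library, and that of Slc30a1 in all 10 and all 18. The IL-4 effect minus the effect of IFN-γ + E. coli was 1.007 for Mt2 (adjusted p = 0.019), a call kept in 8 of 10 alternatives and in 15 of 18 fits that left out a library. The last 3 set 2 experiments side by side, each against its own ACs, so the stimulus and the experiment cannot be told apart.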

How the results depend on the processing

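Of 1174 alternative values for the members, 1133 kept their side of the threshold, 23 lost the call, 18 gained it and 0 called values reversed. Among the 1133, 58 values in 15 results had the other sign, were not called either way and were reported at a size of at most 0.282. With a mean of at least 50, Slc39a14 was not tested with IL-4. Shifts in the number of called members follow. With IFN-γ + E. coli (2 members) the upper-quartile scaling gave 1, and leaving out single libraries 1 to 2. E. coli added to IFN-γ (3) gave 2 with all 18 libraries and 2 to 4 with a library left out (2 without replicate 2 of IFN-γ + ACs or 1 of IFN-γ + E. coli + ACs, losing Slc30a1, and 4 without replicate 1 or 3 of IFN-γ + ACs, adding Mtf1). With IL-4 (0) the count was 1, Mt2, without a filter, with array weights, edgeR, DESeq2, all 18 libraries or without both shallow libraries. The interaction (1) gave 2 with array weights, Mt1 being added, and 1 to 2 with a library left out (2 without replicate 2 of ACs or 3 of IFN-γ + E. coli + ACs, adding Mt1, or 2 of E. coli + ACs, adding Slc30a1). IFN-γ in the presence of E. coli (2) gave 1 to 2 with a library left out. The difference of the IL-4 and E. coli effects (0) gave 0 to 1 with a library left out, Slc39a14 being called without replicate 1 of ACs of the IL-4 experiment. That of IL-4 and IFN-γ (2) gave 1 without a filter, with the upper quartile and with the replicate block, and 1 to 2 with a library left out. That of IL-4 and IFN-γ + E. coli (1) gave 0 without a filter, 2 with array weights, edgeR or DESeq2, Slc30a1 being added, and 0 to 2 with a library left out (2 without replicate 3 of ACs of the IL-4 experiment).

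The replicate block, with numbers that pair the libraries by the check of deviations only between IFN-γ + ACs and IFN-γ + E. coli + ACs, lost Mt1 in the difference of IL-4 and IFN-γ (-0.89, adjusted p = 0.050), changed no other call of a member and gave 74 genes called with IL-4 in place of 116. E. coli added to IFN-γ kept its 3 members under the block, and with these 2 groups fitted alone it called the same 3 with the block and without it (1261 and 1096 genes, 1481 in the reported fit). The number of genes called with IL-4 was 208 without a filter, 745 with array weights, 212 with edgeR and 209 with DESeq2. It was 221 with all 18 libraries, 656 without both shallow libraries, and 47 to 62 without replicate 1 or 2 of either group of the IL-4 experiment. The interaction had 756 genes, 495 with all 18 libraries and 400 to 486 without replicate 3 of ACs, 1 of E. coli + ACs or 2 of IFN-γ + ACs. The difference of IL-4 and E. coli had 461, with 1431 under array weights and 711 with DESeq2, and that of IL-4 and IFN-γ had 1486, with 2423 under array weights. The cause of these shifts was not tested.

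The upper-quartile scaling moved the median of all genes by -0.137 with IFN-γ + E. coli, by -0.105 for IFN-γ in the presence of E. coli and by 0.127 for IL-4 minus IFN-γ + E. coli. It changed the split of calls from 1494 higher and 1746 lower to 1155 and 2200, from 995 and 973 to 769 and 1352, and from 1007 and 1121 to 1268 and 870. Depth limits Slc30a1 and Slc39a14 in the shallow libraries, where 3 reads stand for 15.42 and 16.08.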
